A study of Sus scrofa with 20 samples.

Results

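Sorted liver cells of the pig were compared within 4 pairs of RNA-seq libraries. In each pair, 1 library was labelled CD45+ and the library with the next title number was labelled CD45-/EpCAM+, giving S3 with S4, S8 with S9, S12 with S13 and S18 with S19. These were 8 of the 20 libraries of the series, and 8 of its 15 liver libraries. The other 12 libraries were 5 of biliary tree stem cells (pBTSCs), from the gallbladder and extrahepatic biliary tree, and 7 of other liver sorts. They entered only the filter on low values, with the liver sorts also in 1 alternative fit and as a range for 2 antigen genes. The 8 libraries were polyadenylated RNA of liver cells, with no treatment named. The donor, age, sex and piglet line of each liver library are not given in the labels, and neither is the way in which the cells were sorted or how many cells went into a library. A pair is therefore defined by its title numbers alone.

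CD45, encoded by PTPRC, is a tyrosine phosphatase carried on the surface of most nucleated blood cells, among them stem cells, lymphocytes, granulocytes and macrophages. EpCAM is an adhesion molecule of epithelia that, in the young liver, marks bile duct cells, hepatic stem cells and hepatoblasts. Sorting for both antigens was used in the study to separate blood cells from stem and progenitor cells of the hepatic lineage. The liver around birth also makes blood cells, so that red cell precursors, granulocyte precursors, megakaryocytes and Kupffer cells, the resident macrophages, lie beside hepatocytes, sinusoidal endothelium and contractile stromal cells.

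The antigen genes did not separate the libraries in the direction of their labels. PTPRC stood at 424 normalized counts in S3 and 450 in S4. In the second pair it stood at 1153 in S8 and 2460 in S9. It stood at 2687 in S12 and 3027 in S13, and at 1227 in S18 and 1364 in S19. PTPRC was thus lower in the library labelled CD45+ in 4 of 4 pairs, with within-pair differences, CD45+ minus CD45-/EpCAM+ in log2(normalized count + 1), of -0.09, -1.09, -0.17 and -0.15. The mean was -0.38 ± 0.18 (SE of the limma fit, 4 pairs). This SE, like every ± value below, uses a variance drawn towards that of other genes. It is not the plain spread of the pair differences. A two-sided exact sign-flip permutation test of PTPRC gave p = 0.13, the smallest that 4 pairs allow (limma, adjusted p = 0.714 over all genes tested). Over the 3 deep pairs the mean was -0.44 ± 0.21 (limma, adjusted p = 0.802). With S8/S9 left out of the 4 pairs it was -0.136. EPCAM, in turn, stood at 2095, 2232 and 1415 in S3, S8 and S12 and at 1779, 1760 and 1205 in S4, S9 and S13, whereas S18 and S19 had 1198 and 1241. The library labelled CD45+ was higher in EPCAM in 3 of 4 pairs, with a mean difference of 0.19 ± 0.09 (exact permutation p = 0.25). In the 7 other liver libraries PTPRC ranged from 1247 to 2850 and EPCAM from 491 to 1175, so both antigen genes were detected in every liver library. RNA need not follow the protein seen by an antibody, and these values do not show which cells were sorted. The libraries are therefore named by their labels or title numbers, and not by a cell type.

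Of the other sort antigens, PECAM1 (CD31), an endothelial adhesion molecule, was higher in the library labelled CD45+ in 4 of 4 pairs, at 16311 against 9903, 13877 against 10163, 12940 against 10482 and 26681 against 25978. Its mean difference was 0.38 ± 0.14 (exact permutation p = 0.13, the smallest possible). MCAM (CD146), carried by endothelium and pericytes, was higher in 3 of 4 pairs, with differences of 0.87, 0.64, 0.27 and -0.01. NCAM1 stood at 265 against 128, 232 against 137 and 294 against 287 in the 3 deep pairs, and ICAM1, an adhesion molecule induced by inflammation, differed by 0.47, -0.17, -0.04 and -0.06. Of the 6 antigen genes tested none passed, and with 4 pairs the exact test could not have passed.

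**Figure D1:**
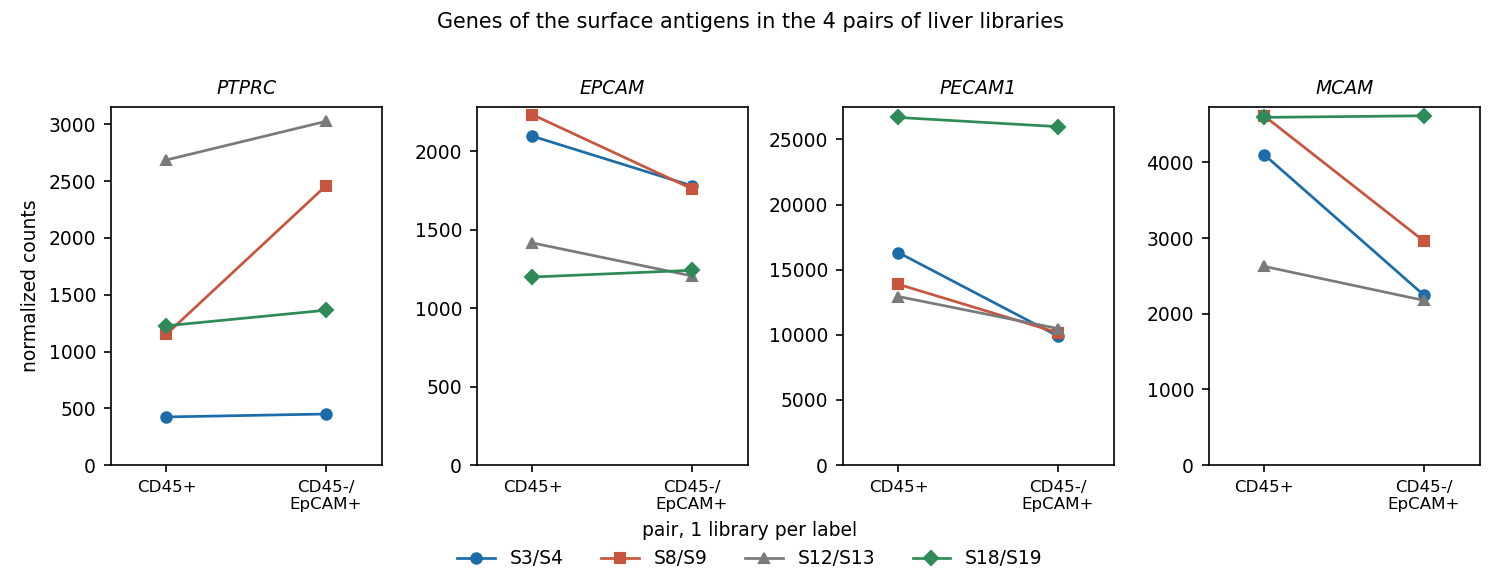
Normalized counts of PTPRC, EPCAM, PECAM1 and MCAM (linear axes from 0) in the library labelled CD45+ (left) and the library labelled CD45-/EpCAM+ (right), with a line and a colour for each pair. Every PTPRC line goes up towards the CD45-/EpCAM+ label, most steeply in S8/S9 (1153 to 2460), and 3 of 4 EPCAM lines go down.

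The depth, estimated from the value of 1 read, was 28700000 to 48700000 reads in 7 of the 8 libraries and 801000 in S13. In S13 a single read is worth 25.7 normalized counts and 3 reads, taken as the floor, 77.1, against floors of 1.41 to 2.18 in the other 7. These floors cover counting error only. The fit and the gene list counts that lead a paragraph are therefore also given for the 3 deep pairs S3/S4, S8/S9 and S18/S19. The neighbours deviated together from the mean of their label, with a Pearson correlation across the 15576 genes tested of 0.70 in S3/S4, 0.57 in S8/S9, 0.42 in S12/S13 and 0.79 in S18/S19, and every library correlated best with its own neighbour. Over the 4534 genes with at least 1000 normalized counts on average, the median absolute difference was 0.0531 to 0.249 (log2) within pairs, 0.202 to 0.511 between libraries of 1 label in different pairs, and 0.254 to 0.483 between libraries of different labels in different pairs. For 7 of 8 libraries the nearest library on this measure was the own neighbour. The exception was S3, whose median difference from S8, of the same label, was 0.202 and from S4 0.249. The median SD over genes was 0.398 for the pair means and 0.16 for the within-pair half-differences, the second taken around their own mean, so that a label difference shared by all pairs is not in it.

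Some genes set the pair S18/S19 apart from the other 3. AFP, the alpha-fetoprotein gene of the albumin family, stood between 65022 and 176993 normalized counts in the first 6 libraries. It stood at 1043 in S18 and 1004 in S19. HIST1H2BB, a histone H2B gene, stood between 2577 and 5034 in those 6 and at 16 and 22.2 in S18 and S19. The paper lists both H2B-GFP transgenic and wild-type piglets as pBTSC donors, but gives no line for the liver libraries. Whether S18/S19 differ in line, age or another donor trait from the other pairs was not tested. None of these can be told apart from pair here. The interferon-induced gene RSAD2 had 5471 and 5569 in S18 and S19, against 19.3 to 119 elsewhere. In each case S18 and S19 lay together and far from the 6 other libraries, which shared 1 range.

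No gene passed the test between the labels. The paired limma fit covered the 15576 genes that had 10 or more normalized counts in 2 or more libraries of the series. It called 0 genes (0% of those tested) at an adjusted p under 0.05 and a log2 difference above 1 in the 4 pairs, and 0 (0%) in the 3 deep pairs. The smallest adjusted p was 0.714 with 4 pairs and 0.802 with 3. At an unadjusted p under 0.05, where 779 genes would be reached with no difference at all, there were 921 genes, of which 613 were higher in the libraries labelled CD45+ (3.94% of those tested) and 308 lower (1.98%). With the 3 deep pairs 908 genes reached it, 722 higher (4.64%) and 186 lower (1.19%). This split depended on the scaling and on both S3/S4 and S8/S9. With every library scaled to the same total it was 666 higher and 133 lower in the 4 pairs and 721 and 81 in the 3 deep pairs. Without S3/S4 the remaining 2 deep pairs gave 138 higher and 159 lower, and without S8/S9 they gave 153 and 114. In simulated libraries of the same size, the 4-pair fit recovered 82.4% of genes changed by 1.5 on the log2 scale, 83.3% of those changed by 2 and 97% of those changed by 3. Those genes averaged at least 100 normalized counts and changed alike in every pair, with noise set from the 3 deep pairs. The real pairs differed from one another, so these shares do not measure what the fit could find here. None of the genes named by value in the following paragraphs passed the test after adjustment. Genes named by rule in a fit were taken only with 1 sign in every pair of it and a small unadjusted p. Their agreement between pairs and their p were therefore set by the choice.

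The pairs differed greatly in how far apart their libraries lay. S18 and S19 were nearly alike, with a Pearson correlation of 0.995, a median absolute difference of 0.073 among the 12772 genes with at least 50 reads in both libraries, and 5 such genes past a difference of 1. In S3/S4 the median was 0.245 with 158 of 12854 genes past 1, and in S8/S9 it was 0.175 with 227 of 12748 past 1. These spreads were 5.02, 3.73 and 1.71 times the counting noise in S3/S4, S8/S9 and S18/S19, and 2.11 times in S12/S13. Among all genes tested, 414 were higher by over 1 in S3 (2.66%) and 254 in S4 (1.63%), 399 in S8 (2.56%) and 360 in S9 (2.31%), and 145 in S18 (0.931%) and 163 in S19 (1.05%). In S12/S13, where a 0 in the shallow library makes a large difference, 2401 genes were higher in S12 (15.4%) and 758 in S13 (4.87%). Only 3483 genes had at least 50 reads in both of these libraries. Among them the median absolute difference was 0.209, and 11 were past 1. Adding 10 in place of 1 before taking logarithms left 142 of 668 genes past 1 in S3/S4, 252 of 759 in S8/S9, 1889 of 3159 in S12/S13 and 16 of 308 in S18/S19. The differences of S3/S4 and S8/S9 correlated at 0.24 across all genes and at 0.32 across those of at least 1000 normalized counts. Those of S18/S19 correlated at -0.0045 and -0.014 with them. These are correlations across genes, which are not independent. All 3 deep pairs were on the same side for 2009 genes that were higher (12.9%) and 1991 that were lower (12.8%) in the libraries labelled CD45+.

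**Figure D2:**
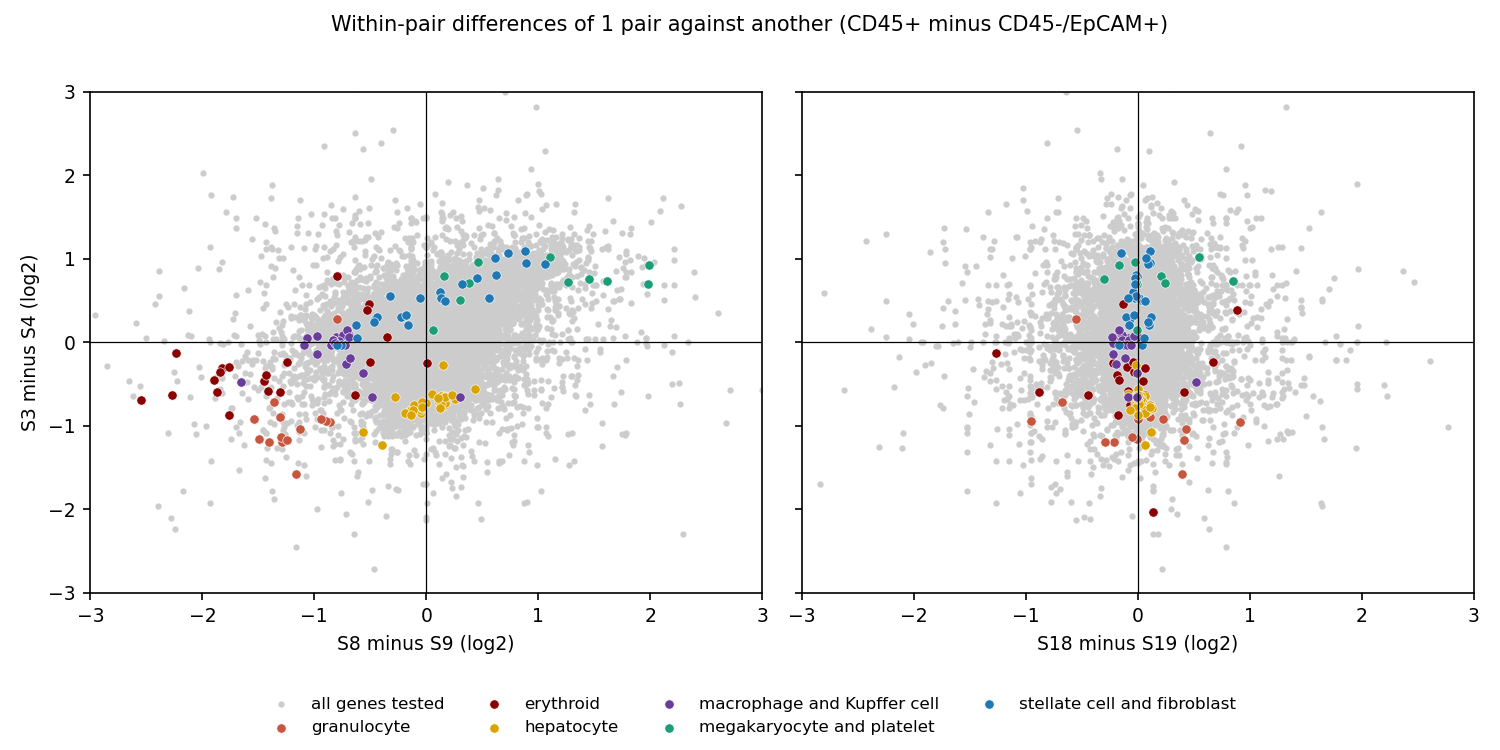
Within-pair difference (CD45+ minus CD45-/EpCAM+, log2) of each of the 15576 genes tested in S3/S4 (vertical) against S8/S9 (left) and S18/S19 (right), with 6 gene lists in colour and 19 and 20 genes beyond the axis limits of 3. In the first panel granulocyte genes lie at the lower left, megakaryocyte genes at the upper right and hepatocyte genes below 0 in S3/S4 but around 0 in S8/S9, and in the second panel most listed genes lie near the vertical line at 0.

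By the 4-pair median of the deposited values, the gene list furthest to one side was that of granulocytes (-0.73), lower in the libraries labelled CD45+. With equal totals its median was -0.671, against 0.672 for megakaryocyte and platelet genes. In S8/S9 alone the erythroid median of -1.42 was lower than that of granulocytes. In bulk samples, fewer cells of a type and less RNA per cell cannot be told apart. The summed level of the 14 granulocyte genes measured was 7591 in S3 and 16527 in S4, 8045 in S8 and 19404 in S9, 2377 in S12 and 3705 in S13, and 290 in S18 and 316 in S19. The median difference of the list was -1.0, -1.27, -0.46 and -0.01 in the 4 pairs, against medians over all genes tested of -0.03, 0.00, 0.06 and 0.00. Of the 14 genes, 13 were lower in S3/S4, 14 in S8/S9, 10 in S12/S13 and 7 in S18/S19. Over all 15576 genes tested, 8197, 7777, 6860 and 7875 were lower and 7262, 7675, 8523 and 7591 higher in these pairs. The counts of every list below are to be read against these. At an unadjusted p under 0.05, 6 were lower in the 4 pairs and 7 in the 3 deep pairs, beside 1.98% and 1.19% of all genes tested, and none was higher. The exception in S3/S4 was EPX, the eosinophil peroxidase, at 25.3 against 20.7.

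S100A9, a subunit of calprotectin and among the most abundant proteins of neutrophils, stood at 1754 in S3 and 4019 in S4, 1906 in S8 and 4668 in S9, 531 in S12 and 745 in S13, and 155 in S18 and 180 in S19. S100A9 was also named by rule, which takes only genes of 1 sign in every pair. Its mean difference was -0.80 ± 0.20 (limma, unadjusted p = 0.00709, adjusted p = 0.714). S100A12, of the same calcium-binding family, stood at 1313 against 3000, 1424 against 3764 and 363 against 490 in the first 3 pairs and at 2.89 against 3.78 in S18/S19. LTF, the lactoferrin of the secondary granules, stood at 1021 against 2239, 842 against 2068, 269 against 591 and 3.60 against 3.76. Each of these neutrophil genes was about 2-fold lower in S3 and S8 than in its neighbour, and S100A12 and LTF stood under 4 normalized counts in the last pair.

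Genes of the primary granules, made in the precursors of the bone marrow or liver, were also lower in the libraries labelled CD45+ of S3/S4 and S8/S9. MPO, the myeloperoxidase, stood at 452 against 934, 571 against 1250 and 101 against 181, and PRTN3, proteinase 3, at 476 against 904, 635 against 1218 and 147 against 360. AZU1, azurocidin, stood at 562 against 1077, 616 against 1144 and 207 against 386. ELANE, the neutrophil elastase, stood at 166 against 324 and 176 against 321 in S3/S4 and S8/S9 but at 67.1 against 49.4 in S12/S13, the second value under the floor of S13. In S18/S19 MPO stood at 2.90 against 1.89 and ELANE at 1.73 against 0.452. AZU1 had the smallest unadjusted p of all genes lower in CD45+ that were named by rule, 0.00147, with a mean difference of -0.92 ± 0.17. In S18 and S19 it stood at 0 and 0.943, below the floor of 3 reads in both, so that its difference of -0.96 there says nothing about its level. Its mean difference was -1.53 with a pseudocount of 0.1 and -0.70 with 10. The same holds for MS4A8, a membrane protein of the CD20 family, and for RETN, the hormone resistin, whose S18 and S19 values were 0 against 0.942 and 0 against 0.957. MS4A8 stood at 105 against 242 and 120 against 292, and RETN at 125 against 289 and 134 against 329, in S3/S4 and S8/S9.

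Further genes linked to neutrophils came up in single pairs, or for SERPINB1 in the 4-pair fit, without being on the list. NPG1, protegrin 1, an antimicrobial peptide of pig neutrophils, was among the 5 lowest differences of S3/S4, at 3528 against 8511. It stood at 3459 against 8701 in S8/S9, 1144 against 2257 in S12/S13 and 3.24 against 2.30 in S18/S19. The protegrins are near-identical copies, so counts assigned to 1 member are uncertain. CD177, a neutrophil surface protein, stood at 250 against 603, 391 against 1050, 89.4 against 129 and 6.49 against 0.942. SERPINB1, an inhibitor of neutrophil elastase that many other cells make as well, was named by rule in the 4-pair fit. Its differences were -0.60, -0.75, -0.37 and -0.08. The granulocyte genes of the rest of the list (S100A8, ELANE, CSF3R, CEBPE, MMP8, MMP9 and PGLYRP1) had differences between -0.71 and -1.57 in S3/S4 and between -0.86 and -1.54 in S8/S9. In S12/S13 S100A8, ELANE and MMP8 were higher, by 0.07, 0.43 and 3.48, with MMP8 at 10.1 in S12 and listed at 0 in S13. In S18/S19 the rest of the list stood at about 7.2 or less, apart from S100A8 at 104 and 105.

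**Figure D3:**
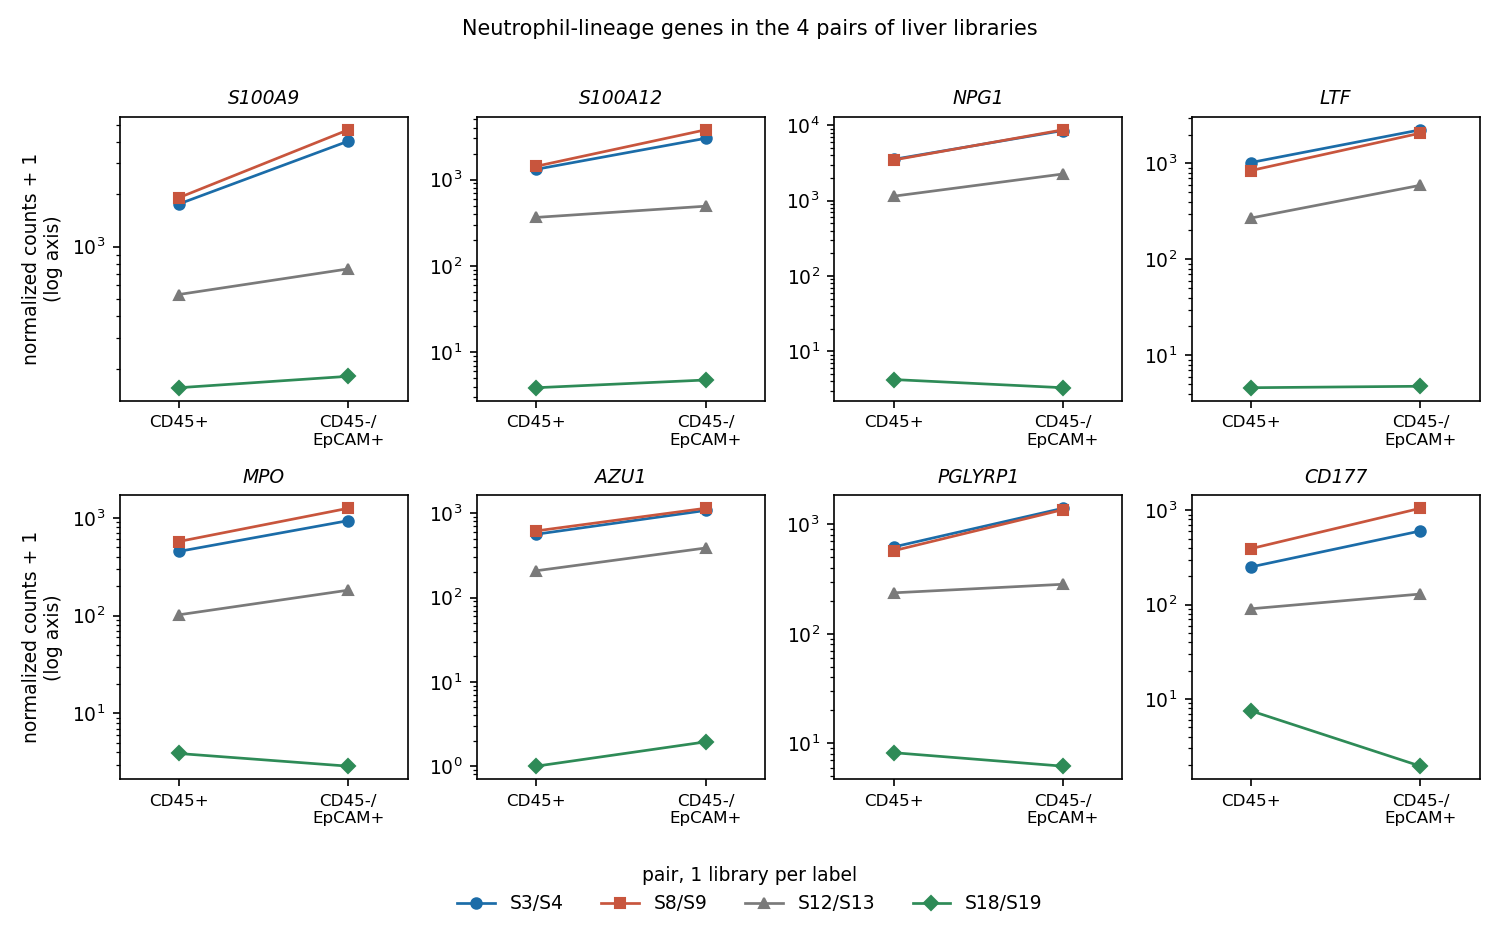
Normalized counts plus 1 (log axes) of 8 neutrophil-lineage genes in the library labelled CD45+ (left) and that labelled CD45-/EpCAM+ (right) of each pair. In S3/S4, S8/S9 and S12/S13 every line goes up towards CD45-/EpCAM+, and the S18/S19 line lies far below, with MPO at 2.90 and 1.89.

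The other leukocyte lists did not lie to 1 side together. In S8/S9, 5 of them were lower in the library labelled CD45+ nearly throughout. All 18 pan-leukocyte genes were lower in S8, with a median of -0.93, as were 17 of 17 T cell genes (-0.64), 13 of 14 NK and cytotoxic genes (-0.76), 21 of 22 macrophage and Kupffer cell genes (-0.76) and 9 of 10 dendritic cell genes (-0.67). The others were less one-sided there, with 9 of 12 B and plasma cell genes, 3 of 6 mast cell and basophil genes (median -0.07) and 3 of 7 MHC class II genes (median 0.03) lower in S8. Over all genes tested, 7777 of 15576 were lower in S8. Among the macrophage genes, CD163, the haemoglobin scavenger receptor of Kupffer cells, stood at 10434 in S8 and 21781 in S9, and C1QB, a chain of complement C1q, at 7936 and 13329. The macrophage list made up 0.384% of the normalized counts of S8 and 0.626% of those of S9. CD14, the lipopolysaccharide receptor, was the exception, at 7040 in S8 and 5723 in S9.

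In the other pairs the same genes lay near 0 or on the other side. In S3/S4 the macrophage median was 0.0004, with CD163 at 12119 and 11663 and C1QB at 6885 and 6507, whereas NK and cytotoxic genes were higher in S3 in 13 of 14 cases, with a median of 0.70 at low levels (EOMES, a transcription factor of these cells, 9.02 and 2.80). In S12/S13 the macrophage genes had a median of 0.14, and in S18/S19 of -0.13, lower in S18 in 21 of 22 cases by small amounts (CD163 8645 and 9201). The 4-pair medians were -0.26 for pan-leukocyte, 0.05 for T cell, -0.03 for NK and cytotoxic and -0.21 for macrophage genes, against 0.01 over all genes. Without S8/S9 these medians were -0.0538, 0.187, 0.255 and -0.00799. At an unadjusted p under 0.05, 0 of 18, 0 of 17, 1 of 14 and 2 of 22 genes of these lists were lower in the 4 pairs. In the 3 deep pairs 3, 1, 1 and 2 were lower. Of all genes tested, 1.98% and 1.19% were lower in the 2 fits. B and plasma cell genes had a 4-pair median of 0.34 and a 3-pair median of -0.14, and 8 of the 12 tested were at 0 in S13. Of the defining T and B cell markers, CD3E stood at 8.66 to 31.7 and MS4A1 (CD20) at or below 7.06 in all 8 libraries. Other genes of these lists were higher, such as CD4 at 525 to 2327 and EBF1, a B cell factor that stromal cells also express, at 227 to 987.

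Of the 7 genes of MHC class II presentation, 6 were higher in the library labelled CD45+ in S3/S4, 4 in S8/S9, 7 in S12/S13 and 0 in S18/S19. Over all genes tested, 7262, 7675, 8523 and 7591 of 15576 were higher. The list median in S8/S9 was 0.03, and its summed level was 20500 in S8 and 22649 in S9. CIITA, the master regulator of MHC class II, stood at 519 against 316, 423 against 268, 464 against 200 and 1126 against 1266. SLA-DQB1, a class II chain, stood at 1726 against 1047, 2055 against 1536, 2384 against 1903 and 4087 against 4146. CTSS, a protease that macrophages use to process the invariant chain, was instead 5802 in S8 and 9773 in S9, as the macrophage genes were.

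Erythroid genes had a median below 0 in 4 of 4 pairs, and it was lowest in S8/S9. The median of 23 genes was -0.39, -1.42, -0.12 and -0.04 in the 4 pairs, with 19, 20, 12 and 14 genes lower, where 8197, 7777, 6860 and 7875 of all 15576 genes were lower. At an unadjusted p under 0.05, 9 were lower in the 4 pairs and 6 in the 3 deep pairs, beside 1.98% and 1.19% of all genes tested. Without S8/S9 the 4-pair median of -0.43 was -0.18. HBB, a beta-globin, stood at 11736 in S3 and 16264 in S4, 15011 in S8 and 41024 in S9, 14149 in S12 and 15376 in S13, and 2391 in S18 and 2314 in S19. Genes of the red cell or its precursors were among the 5 lowest differences of S8/S9 at sufficient level. SPTB, a spectrin of the red cell skeleton, stood at 277 against 982 there. SLC4A1, the anion exchanger band 3, stood at 445 against 1655, HEMGN, a nuclear protein of erythroid precursors, at 376 against 1355, and TRIM58, a ubiquitin ligase of the late erythroblast, at 60.4 against 223. In S3/S4 these 4 genes had differences of -0.31 to -0.60. ALAS2, the erythroid enzyme that starts haem synthesis, was lower in 4 of 4 pairs, at 240 against 358, 332 against 888, 240 against 459 and 63.5 against 67.7. TFR2, which hepatocytes express too, did not follow in S8/S9, at 5982 against 5335.

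Megakaryocyte and platelet genes lay on the opposite side from the erythroid and granulocyte genes in S3/S4 and S8/S9. All 11 genes tested were higher in S3 than in S4 and in S8 than in S9, with medians of 0.73 and 1.11. At an unadjusted p under 0.05, 5 were higher in the 4 pairs and 3 in the 3 deep pairs, beside 3.94% and 4.64% of all genes tested. PPBP, a chemokine of platelet granules, stood at 911 against 538, 694 against 252, 899 against 622 and 154 against 190. TUBB1, the tubulin of the platelet ring, stood at 182 against 95.3, 183 against 45.1, 283 against 154 and 102 against 114. TREML1, a receptor of platelet granules, stood at 190 against 115, 193 against 79.7, 164 against 51.4 (under the floor of S13) and 27.4 against 27.8. GP1BA, a subunit of the receptor for von Willebrand factor, was higher in 4 of 4 pairs at low levels, 90.8 against 44.3, 65.5 against 29.9, 61.3 against 25.7 (1 read) and 23.8 against 16. In S12/S13 the median of the list was 0.87, with 8 genes higher and 3 lower. The summed level of the 12 genes measured was nevertheless 15619 in S12 and 16021 in S13. That sum was 31843 against 19978 in S3/S4, 25764 against 19600 in S8/S9 and 23309 against 20315 in S18/S19. In S18/S19 the median of the list was -0.01. ITGA2B, an integrin of platelets, differed by 0.15, 0.06, -0.20 and -0.01.

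Several genes of contractile cells and vessel walls were higher in the library labelled CD45+ in 4 of 4 pairs. Of these CNN1 and MGP were among the 10 genes of smallest p named by rule, and ACTA2 and TAGLN are from the list of stellate cells and fibroblasts. ACTA2, smooth muscle actin, stood at 41703 against 21622, 53876 against 29113, 12217 against 8254 and 22449 against 20870. TAGLN, transgelin, stood at 24751 against 12931, 29356 against 14035, 8715 against 5011 and 13332 against 12502. CNN1, calponin, stood at 3111 against 1661, 4073 against 2249, 1606 against 888 and 3523 against 3214. Each was close to 2-fold higher in S3 and in S8 than in its neighbour, and close to its neighbour in S18.

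Also named by rule were MGP and TIMP1. MGP, the matrix Gla protein of vessel walls, stood at 16479 against 8816, 14314 against 7437, 5689 against 2802 and 9178 against 8000 (mean difference 0.77 ± 0.16, unadjusted p = 0.00267, adjusted p = 0.714). TIMP1, an inhibitor of metalloproteinases, stood at 5148 against 2560, 4945 against 2445, 2380 against 1260 and 2425 against 2170 (0.78 ± 0.16, unadjusted p = 0.00279). RGS5, a marker of pericytes, differed by 1.09, 0.88, 0.34 and 0.10. The remaining genes named by rule as higher in the 4 pairs were SCARA3, a scavenger receptor, FBLIM1 and AIF1L, which bind the actin skeleton, IER5, an immediate-early gene, EFHD1, a calcium-binding protein, LYNX1, a modulator of acetylcholine receptors, and GEM, a small GTPase. Their mean differences ran from 0.46 to 0.90, and in S18/S19 from 0.13 to 0.27.

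Not all stromal genes followed. Of 24 stellate cell and fibroblast genes tested, 7 were higher at an unadjusted p under 0.05 in the 4 pairs and 5 in the 3 deep pairs, beside 3.94% and 4.64% of all genes tested, and the list median was 0.53, 0.03, 0.28 and -0.02. The fibrillar collagens COL1A1 and COL3A1 stood at 31323 against 28837 and 27696 against 28829 in S8/S9. RELN and HGF, which stellate cells of the liver express, were lower in S8, at 2769 against 4684 and 1490 against 2281, and LRAT, which stores vitamin A in these cells, stood at 855 against 1323. TCF21, a factor of stromal precursors, was higher in 4 of 4 pairs, with differences of 1.01, 0.62, 1.38 and 0.07.

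**Figure D4:**
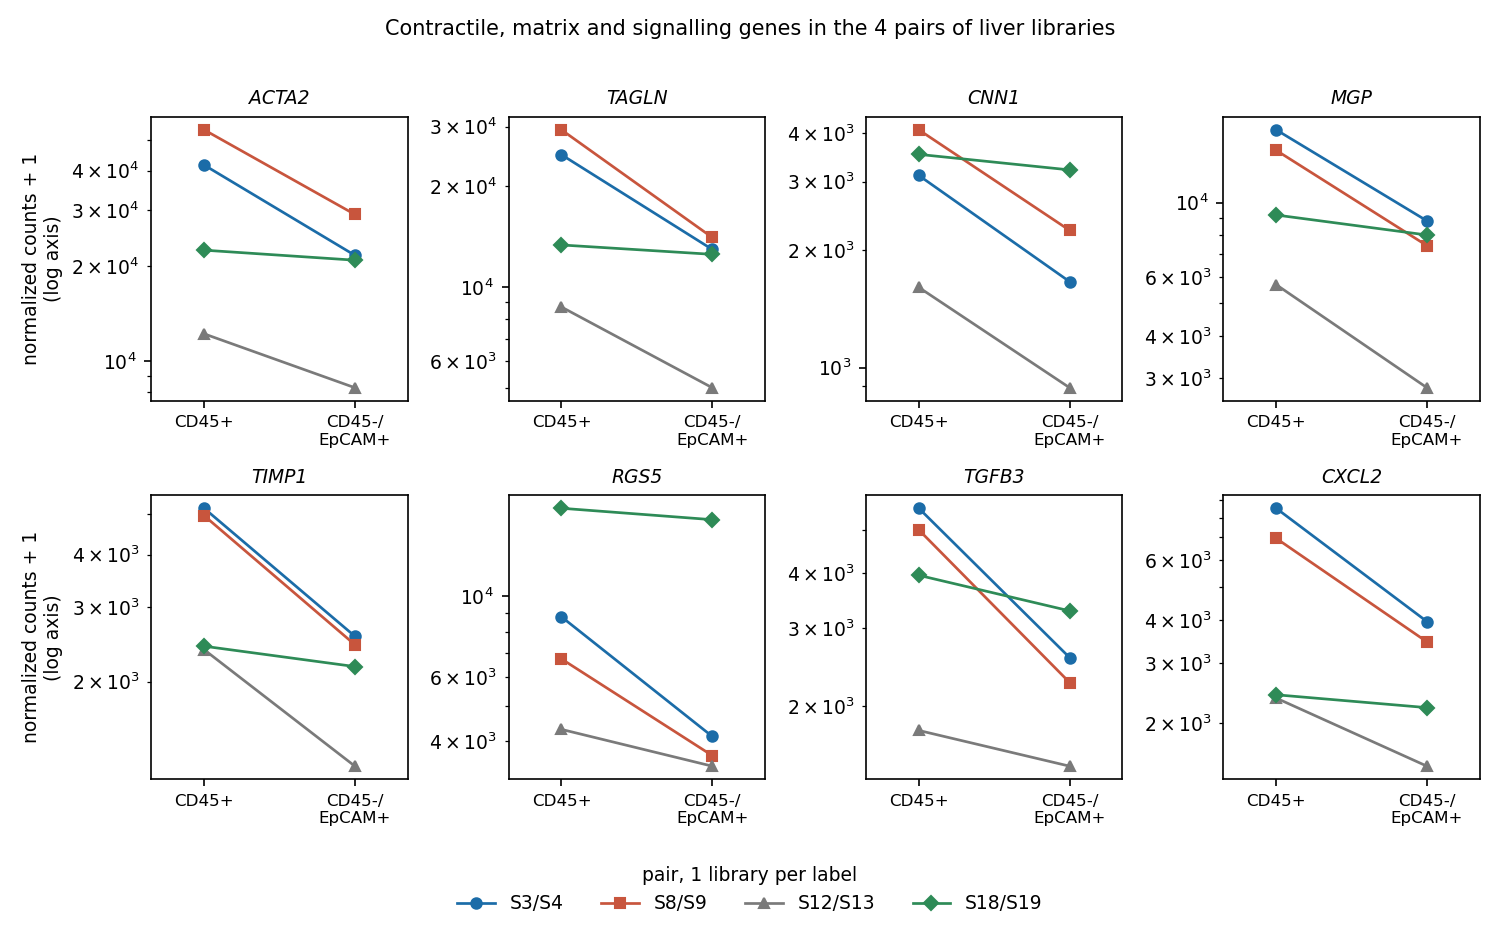
Normalized counts plus 1 (log axes) of 8 contractile, matrix and signalling genes in the library labelled CD45+ (left) and that labelled CD45-/EpCAM+ (right) of each pair. All lines go down towards CD45-/EpCAM+, steeply in S3/S4 and S8/S9 (ACTA2 41703 to 21622 and 53876 to 29113) and only slightly in S18/S19 (22449 to 20870).

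With the 3 deep pairs, genes of signalling and muscle joined the list. TGFB3, a transforming growth factor, stood at 5597 against 2577, 5003 against 2264 and 3951 against 3285 in S3/S4, S8/S9 and S18/S19 (0.84 ± 0.19, unadjusted p = 0.00534, adjusted p = 0.802). IL6, an inflammatory cytokine, stood at 393 against 176, 466 against 223 and 132 against 104, whereas in S12/S13 it was 142 against 233, the second value from the shallow library. The muscle genes MYOM1 and FHL5, the gliomedin gene GLDN, the coagulation inhibitor TFPI, SUSD5 and LSMEM1 had 3-pair means between 0.56 and 0.85. The lower genes named by rule in the 3 deep pairs were AZU1, RETN, MS4A8, S100A12 and S100A9, which are given above, together with NUP210, a nuclear pore protein, FAM46C, a poly(A) polymerase, HBM, a globin, RAB11FIP4 and FAM155B. NUP210 stood at 715 against 1080, 961 against 1382, 2061 against 2727 and 1941 against 2228. The 4-pair fit also named PHF6, a chromatin protein, and ZDHHC5, a palmitoyltransferase, as lower, with mean differences of -0.40 and -0.33.

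Endothelial genes divided between pairs. All 23 were higher in S3 than in S4, with a median of 0.56, whereas in S8/S9 the median was -0.14 and 13 were lower. The scavenger receptor STAB2 and LYVE1, both of sinusoidal endothelium, stood at 8862 against 17450 and 1977 against 3246 in S8/S9. VWF, which is richest in the endothelium of larger vessels, was higher in 4 of 4 pairs, at 5626 against 3566, 3801 against 2946, 3967 against 3504 and 6235 against 6062. SOX18, a factor of vascular development, differed by 0.80, 0.69, 0.28 and -0.06.

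Hepatocyte genes set S3/S4 apart from the rest. All 31 tested were lower in S3 than in S4, with a median of -0.73, and together they made up 10.5% of the normalized counts of S3 and 15.2% of those of S4. ALB stood at 525057 and 929142, and CPS1, the first enzyme of the urea cycle, at 39817 and 93371. In S8/S9 the list median was 0.05 (11% and 11.3% of normalized counts), in S12/S13 -0.15 (7.01% and 9.07%) and in S18/S19 0.01 (14.7% and 14.3%). ALB was thus at or above 513084 in every library, including the 4 labelled CD45+. The S3/S4 difference depends in size on the scaling, since S4 has the larger total. With every library scaled to the same total the hepatocyte median of S3/S4 was -0.47 while that of all genes was 0.22, so that relative to all genes it was little changed.

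Bile duct genes, which belong to the epithelium that carries EpCAM, lay slightly higher in the libraries labelled CD45+ in 3 pairs. Of 29 tested, 23 were higher in S3/S4, 27 in S8/S9, 20 in S12/S13 and 8 in S18/S19, with medians of 0.29, 0.38, 0.29 and -0.06. Over all genes tested, 7262, 7675, 8523 and 7591 of 15576 were higher. KRT7, a keratin of bile ducts, stood at 954 against 704, 873 against 462, 681 against 467 and 564 against 676. CLDN4, a tight junction protein, stood at 7884 against 6289, 6394 against 3404, 3775 against 2648 and 2511 against 2580. SPP1, osteopontin, stood at 5049 against 3482, 5981 against 3694, 4003 against 2725 and 3738 against 3846, and was higher in 3 of 4 pairs as KRT7 and CLDN4 were. SOX9, the progenitor transcription factor, differed by 0.34, 0.45, -0.06 and 0.06. At an unadjusted p under 0.05, 7 genes of this list were higher in the 4 pairs and 3 in the 3 deep pairs, beside 3.94% and 4.64% of all genes tested, and 0 were lower. As a list, the duct genes were therefore not lower in the library labelled CD45+ of S3/S4, S8/S9 and S12/S13. In S18/S19, 21 of 29 were lower, with a median of -0.06.

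**Figure D5:**
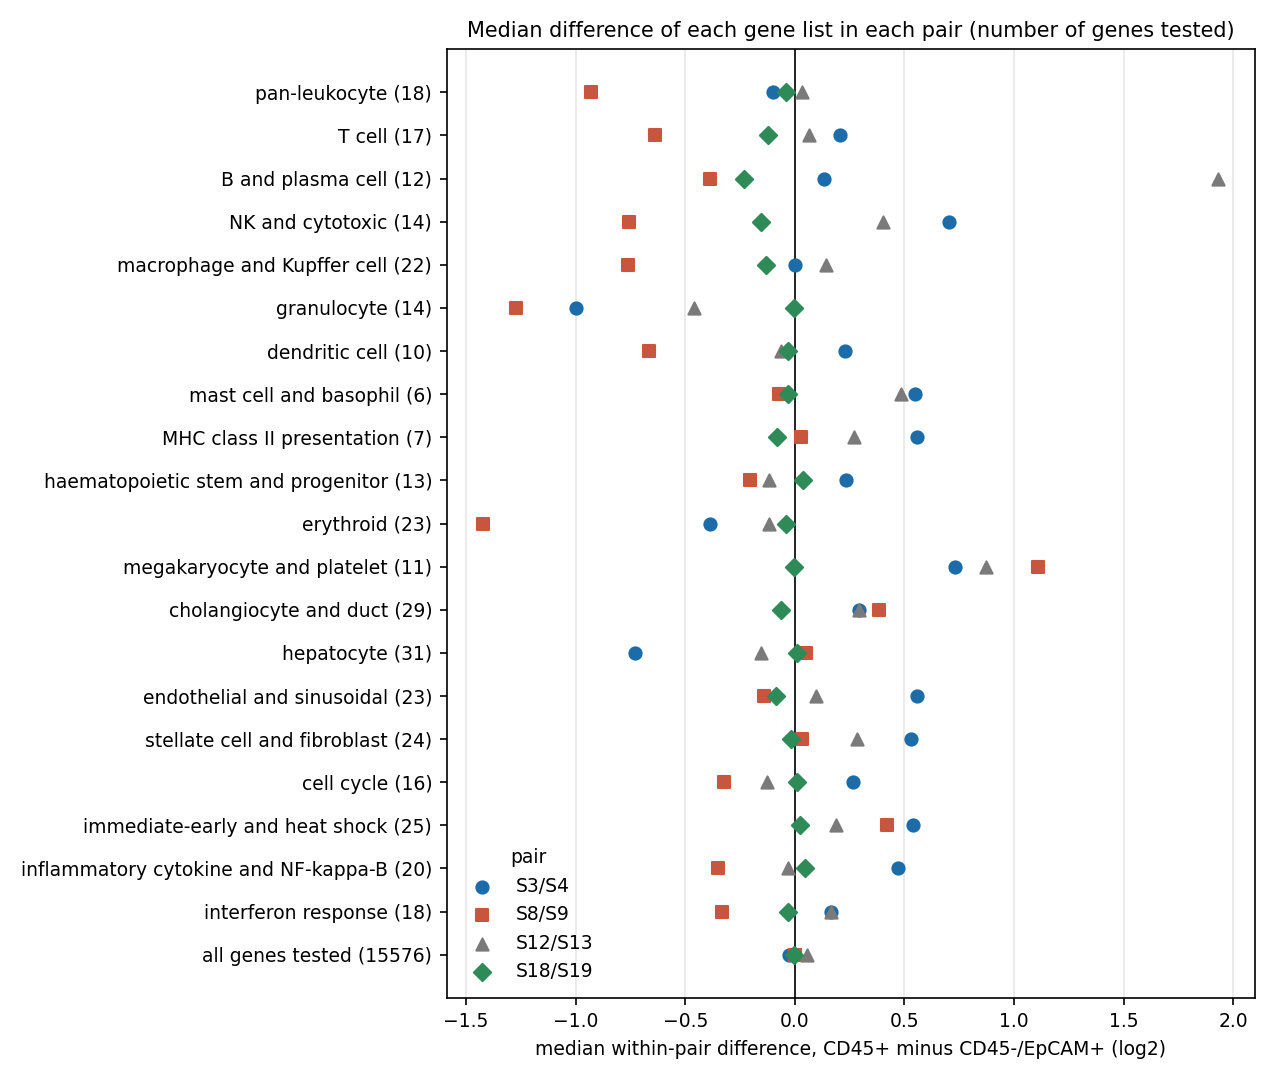
Median within-pair difference (CD45+ minus CD45-/EpCAM+, log2) of each gene list in each pair, with the number of genes tested in brackets. The S18/S19 points lie close to 0 throughout, and granulocyte and erythroid medians are lowest in S8/S9 (-1.27 and -1.42). The hepatocyte median is low in S3/S4 (-0.73). The megakaryocyte median is high in 3 of 4 pairs, but in S12/S13 it includes genes under the floor of S13.

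Immediate-early genes, which many cells switch on within minutes of a stimulus, were, on a list that also holds heat shock genes, higher in the libraries labelled CD45+ in 14 of 25 cases in all 3 deep pairs, where 12.9% of all genes tested were. NR4A1, a nuclear receptor, stood at 19464 against 9952, 17035 against 7324, 8624 against 6796 and 13459 against 13268, and EGR2, a zinc-finger factor, at 2566 against 1452, 2158 against 1291, 1109 against 566 and 1858 against 1811. The heat shock genes HSPA8 and HSP90AA1 differed by 0.01 and 0.05 in S3/S4 and -0.23 and -0.15 in S8/S9. CXCL2, a neutrophil-attracting chemokine, was higher in 4 of 4 pairs, at 8517 against 3965, 6953 against 3457, 2366 against 1494 and 2419 against 2218. Of the 14 granulocyte genes, 13 were lower in S3/S4, 14 in S8/S9, 10 in S12/S13 and 7 in S18/S19. The macrophage cytokines TNF and IL1A were lower in S8, at 368 against 806 and 440 against 840.

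Proliferation genes differed in direction between pairs. Of 16 tested, 15 were higher in S3/S4 (median 0.27) and 15 were lower in S8/S9 (-0.32), and MKI67, the marker of dividing cells, stood at 1260 against 1056, 2090 against 3701, 5563 against 8998 and 1993 against 1978. Among blood progenitor genes, CD34, which endothelium also carries, stood at 2840 against 1587, 2974 against 1450, 1084 against 771 and 4413 against 4563. MYB, a factor of blood progenitors, had the opposite order in the first 2 pairs, at 61.6 against 94.5 and 54.2 against 172. Interferon-induced genes had medians of 0.16, -0.33, 0.16 and -0.03.

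Genes at the ends of single pairs, which have no replicate check, were partly shared. HAS1, a hyaluronan synthase, was among the 5 highest in S3/S4 and S8/S9, at 351 against 143 and 295 against 82.9, and stood at 271 against 247 in S18/S19. The other high genes of S3/S4 were TMOD1, APOD, EPHX3 and GLDN, and those of S8/S9 TTC36, COX4I2, GPER1 and PPBP, while STX5, PPARA and CPS1 joined the neutrophil genes at the low end of S3/S4. TTC36 was among the extremes of 3 pairs with no common direction, at 678 against 1057, 366 against 91.9, 147 against 643 and 295 against 99.3. In S12/S13, ANKRD13D, TMEM25, FANCG and MRPS28 were at 222 to 741 in S12 and listed at 0 in the shallow S13, and ZNF839 stood at 267 against 25.7, which is 1 read. Besides TTC36, the low end of that pair held TTC26, MYOCD, TANC2 and ZNF502, with 60.3 to 88.1 in S12 and 219 to 365 in S13. In S18/S19 the genes other than TTC36 and 7SK, a small nuclear RNA whose symbol many rows share, had differences between -0.49 and 0.76 (C19orf24, SGMS2, SNX30, EPHA7, C20orf27, ZNF76, EIPR1 and MRPS18C).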

How the data were processed

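The deposited values, made by the authors, are normalized counts (a non-negative signal) in 1 table of 25764 genes, 7782 of them without a symbol, by 20 libraries. The processing notes of the authors list STAR, Salmon and DESeq2 without role or version, and the labels name Qiagen RNeasy and Illumina TruSeq Stranded mRNA as kits, and polyadenylated RNA. The genome build and annotation are not given in the sources used here, and the files give no coordinates. What 1 read is worth was estimated for every library from its low values, and dividing the library total by it gave the depth. In no library were more than 87.3% of low values within 0.05 of a whole number of reads. Read counts were therefore not recovered, and no count model was fitted.

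Values were taken as log2(normalized count + 1), for the 15576 genes that reached 10 normalized counts in 2 or more libraries. The added 1 understates fold changes of low genes. Differences were fitted in limma 3.58.1 (R 4.3.3) with the pair as a block, eBayes with trend and Benjamini-Hochberg adjustment over all genes tested, and called at adjusted p under 0.05 and an absolute log2 difference above 1. The fit with 3 pairs left out S12 and S13. Antigen genes were also tested with exact sign-flip permutations over pairs. Nothing says that the pairs came from separate donors, so p-values measure only the spread between these libraries. The title numbers were taken to pair the libraries because same-pair correlations of deviations were 0.70, 0.57, 0.42 and 0.79, which was decided before calls were compared.

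The fit was tested on simulated data with 200 genes changed alike in every pair, where no unchanged gene was called. The pairs, members and gene lists were chosen with earlier results of these data known. Genes named are those of the lists, up to 10 per direction and fit by called status and then by smallest unadjusted p among genes of 1 sign in every pair and a mean of at least 50 normalized counts, and 5 per direction and pair with at least 200 in the higher library. Of 419 listed symbols, 361 had a row, and the symbols without one include XIST, KRT19, ITGAM and PF4. Some genes that the rule names are not reported here. Figures were drawn with matplotlib 3.10.9.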

Additional observations from a re-analysis of the deposited data

Results flagged for a closer look

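In 4 of the quantities examined over 4 pairs or 4 libraries, 1 value lay far from the other 3 (Dixon's criterion, which chance meets in about 1 of 20 groups). 38 such groups were examined. The PTPRC difference of S8/S9, -1.09, lay apart from -0.17 to -0.09 in the other pairs, and the pan-leukocyte median of the same pair, -0.93, lay apart from -0.10 to 0.03. The NCAM1 difference of S12/S13, 6.84, lay apart from 0.04 to 1.04, and S13 lists NCAM1 at 0 with a floor of 77.1 normalized counts. PECAM1 in S19, 25978 normalized counts, lay apart from 9903 to 10482 in the other libraries labelled CD45-/EpCAM+, and its neighbour S18 had 26681.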

How the results depend on the processing

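The count of 0 called genes was the same under other pseudocounts (0.1 and 10), both rescalings, no filter, stricter filters, array weights, no trend, no fold threshold, the fit to all liver libraries with runs of title numbers as the replicate block, and each pair left out, with smallest adjusted p from 0.159 to 1 with 4 pairs and from 0.367 to 1 with 3. Without the replicate block, 0 genes were called too, and 89 and 137 genes had an unadjusted p under 0.05 with 4 and 3 pairs, against 921 and 908 with it, so pairing changed no call. Without S18/S19 the counts at unadjusted p under 0.05 were 1384 and 1532, without S3/S4 274 and 297, and without S8/S9 243 and 267, so that leaving out 1 pair moved them by over 1.5 times. Without S12/S13 the 4-pair count was 908. A pseudocount of 10 moved the genes past a log2 difference of 1 in single pairs to 142, 252, 1889 and 16 (S3/S4, S8/S9, S12/S13, S18/S19). Over genes with at least 100 normalized counts, the same-pair correlations were 0.854, 0.755 and 0.718 in S3/S4, S8/S9 and S12/S13, and the differences of S8/S9 and S12/S13 correlated at 0.244. Over genes with at least 1000, an alternative chosen after seeing the data, the differences of S12/S13 correlated with those of S3/S4, S8/S9 and S18/S19 at 0.223, 0.364 and -0.173. The median of the mast cell and basophil list ranged from 0.011 (without S12/S13) to 0.638 (without S18/S19) with 1 pair left out, against 0.436 in all. The mean ICAM1 difference, 0.05 in all pairs, ranged from -0.0873 (without S3/S4) to 0.13 (without S8/S9). The cause of these shifts was not tested. Scaling to equal totals moved the S3/S4 median of all genes from -0.03 to 0.22, and of the lists only pan-leukocyte changed side in that pair, from -0.10 to 0.16. Depth limits S13, where genes under 77.1 normalized counts cannot be told from 0.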
